A study of Mus musculus with 9 samples.

Results

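The 10 genes described here are Col1a1, Col1a2, Col3a1, Lum, Fmod, Ogn, Slc6a13, Slc22a6, Slc13a4 and Igf2, taken by gene name from a table of 53465 genes. They are transcripts of the fibroblasts that build the meninges, the connective tissue sheets around the brain, and all 10 were present in the table. RNA was measured by bulk sequencing of mouse ventral hippocampus in 9 libraries, 3 from each of 3 groups. The group CRS-WT was the wild type, CRS-NKAα1+/- is labelled as carrying 1 intact copy of NKAα1, and CRS-WT-DR5-12D was the wild type with DR5-12D. CRS was common to all 3 groups, and neither CRS nor DR5-12D is explained in the labels. No label ties a library to an animal, age or batch, so a p-value here speaks of variation among these samples, part of which may be technical.

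Meningeal fibroblasts lie in the pia, arachnoid and dura and follow larger vessels into the brain, while neurons and glia of the hippocampus make little fibrillar collagen. Type I collagen is assembled from the chains encoded by Col1a1 and Col1a2, and type III collagen from the chain encoded by Col3a1. Lumican, fibromodulin and osteoglycin (Lum, Fmod, Ogn) are small leucine-rich proteoglycans, a family with members that bind collagen fibrils and affect their thickness. Slc6a13 carries GABA and taurine, Slc22a6 exchanges organic anions, and Slc13a4 carries sulfate with sodium. Igf2 is an imprinted growth factor that the meninges and choroid plexus release into the fluid around the brain.

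All values are FPKM as deposited, fragments scaled to gene length and to 1 factor per library, called the implied depth. It was 15117452 to 27323380, and any pair of libraries correlated on the log2 scale at a Pearson r of 0.950 to 0.986. The implied depth is not a count of sequenced fragments: in CRS-NKAα1+/- replicate 1 it was 15656850, where 16217714 fragments were recovered. Median-of-ratios factors were 1.005 in every library, so the deposited values already appear to be normalised between libraries. Several libraries stood apart in ways that touch these genes. The summed FPKM of 8 granule cell genes was 32.5 for CRS-NKAα1+/- replicate 1, 25.0 for its replicate 2 and 30.7 for CRS-WT-DR5-12D replicate 1, against 69.7 to 98.9 in the other 6. These 3 libraries are called low in granule cell genes below. CRS-WT replicate 1 stood apart in H19, an imprinted noncoding RNA next to Igf2, at 43.4 FPKM against 0.125 to 3.12 elsewhere. In bulk tissue, fewer cells of a type and less RNA per cell cannot be told apart.

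Regulatory sequence is shown for 4 of the genes, as examples of the patterns described below. Col3a1 was highest in CRS-WT replicate 1, and Ogn, Slc22a6 and Slc13a4 were lowest in the 3 libraries low in granule cell genes. Other genes with these patterns are not shown. Each line holds the 250 bases before a RefSeq start site on GRCm38.p6, written 5′ to 3′ on the strand of the gene. Col3a1 is at chr1:45311288-45311537 (plus strand), Ogn at chr13:49607765-49608014 (plus), Slc22a6 at chr19:8617746-8617995 (plus) and Slc13a4 at chr6:35308127-35308376 (minus). Capitals mark matches to 3 motifs on either strand, and matches that overlap form 1 longer run. The CCAAT box is CCAAT, which reads ATTGG on the opposite strand. The TATA motif is TATAAA, with TTTATA opposite, and the GC box is GGGCGG, with CCGCCC opposite.
Col3a1: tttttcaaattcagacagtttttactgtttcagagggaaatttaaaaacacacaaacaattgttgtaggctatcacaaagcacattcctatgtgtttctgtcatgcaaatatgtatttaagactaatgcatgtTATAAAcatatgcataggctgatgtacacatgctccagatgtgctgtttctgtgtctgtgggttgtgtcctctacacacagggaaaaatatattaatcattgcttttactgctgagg
Ogn: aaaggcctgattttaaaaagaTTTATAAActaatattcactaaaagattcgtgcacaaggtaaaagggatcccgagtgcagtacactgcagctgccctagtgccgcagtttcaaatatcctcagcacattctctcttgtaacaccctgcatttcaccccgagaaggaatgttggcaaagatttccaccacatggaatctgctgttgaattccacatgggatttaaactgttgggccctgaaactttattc
Slc22a6: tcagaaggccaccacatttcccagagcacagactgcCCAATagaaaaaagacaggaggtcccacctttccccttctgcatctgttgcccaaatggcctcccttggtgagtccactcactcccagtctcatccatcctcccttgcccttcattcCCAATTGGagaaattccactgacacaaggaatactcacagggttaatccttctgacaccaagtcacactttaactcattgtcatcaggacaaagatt
Slc13a4: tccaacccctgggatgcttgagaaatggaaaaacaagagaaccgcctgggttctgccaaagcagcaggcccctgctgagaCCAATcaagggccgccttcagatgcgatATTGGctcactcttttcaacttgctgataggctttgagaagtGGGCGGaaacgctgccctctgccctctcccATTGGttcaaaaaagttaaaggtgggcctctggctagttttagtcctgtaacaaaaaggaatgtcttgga
The Col3a1 window was poor in G and C (35.2%) and held TATAAA once, 117 bases before the start. The Ogn window held TATAAA on both strands in 1 overlapping run, 229 and 227 bases before the start, and neither of the other motifs. In Slc22a6 the motif CCAAT was matched 3 times, at 214, 97 and 94 bases. The Slc13a4 window also held it 3 times, at 170, 142 and 70 bases, and GGGCGG once, at 100 bases. Of the genes not shown, Fmod was also lowest in those libraries, and its window held none of the 3 motifs. Col1a2 was also highest in CRS-WT replicate 1. Its window was 62.0% G and C and held CCAAT 1 time and GGGCGG 2 times. RefSeq windows were found for 8 of the 10 genes, in 13 windows, of which 5 held CCAAT, 2 TATAAA and 5 GGGCGG. Over 32536 such windows of all genes the shares were 33.8%, 12.3% and 33.0%. A match describes these letters and is not evidence of a bound site.

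None of the 10 genes was called different between groups, and the patterns that stood out in their levels were of libraries. The fibrillar collagen genes were highest in CRS-WT replicate 1, and the proteoglycan genes, Slc22a6, Slc13a4 and Col1a1 were lowest in the 3 libraries low in granule cell genes. Differences below are of group means of log2(FPKM + 1) from limma, with the standard error and a p adjusted by Benjamini-Hochberg over the 17753 genes whose mean FPKM reached 0.5. Of the 10 genes 9 passed that minimum and Igf2 did not.

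**Figure D1:**
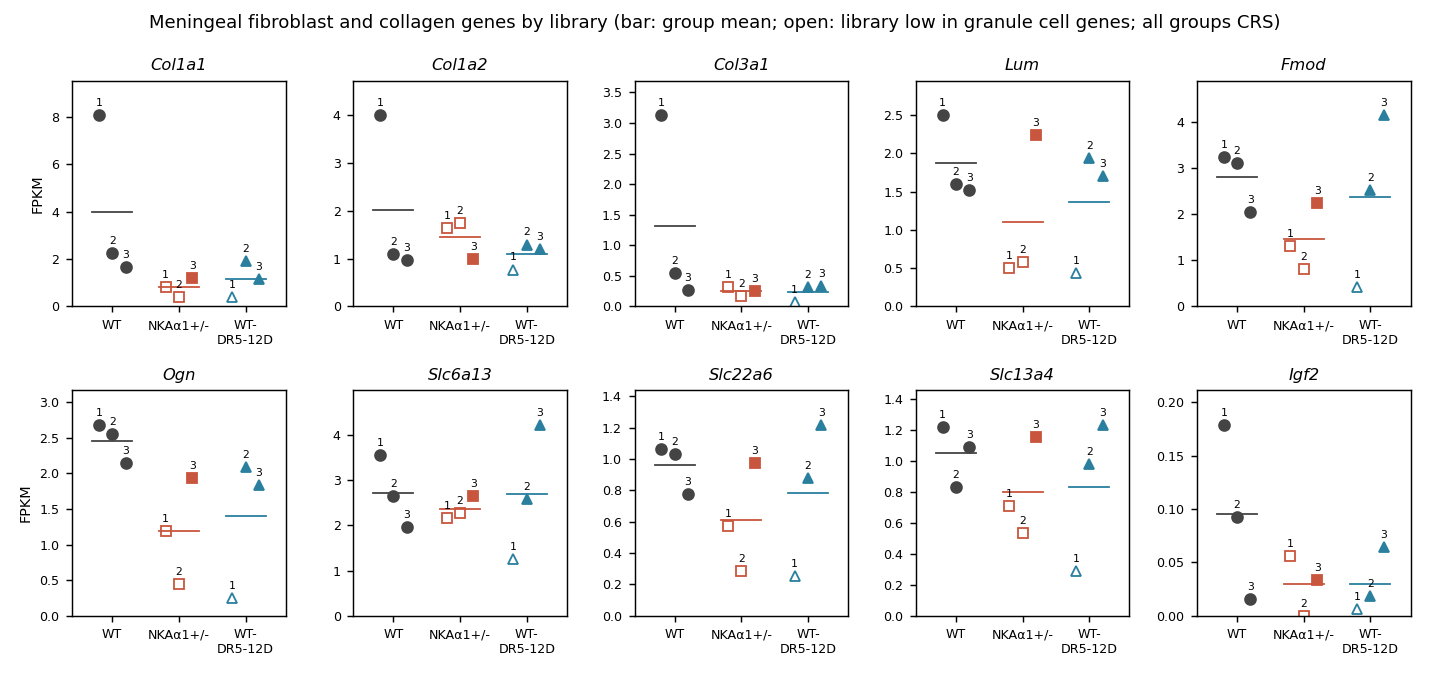
FPKM of each of the 10 genes (vertical axes start at 0) in every library of the 3 groups; points are libraries numbered by replicate, bars are group means, and open points are the 3 libraries low in granule cell genes. Col3a1 reached 3.12 FPKM in CRS-WT replicate 1 and at most 0.546 elsewhere, while the open points of Ogn lie at 0.253 to 1.19 and the filled ones at 1.84 to 2.68.

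Among the fibrillar collagens, Col1a1 (ENSMUSG00000001506, GRCm38 chr11:94936224-94953042, plus strand) stood at 8.06, 2.26 and 1.67 FPKM in CRS-WT replicates 1 to 3. In CRS-NKAα1+/- it stood at 0.817, 0.410 and 1.22, and in CRS-WT-DR5-12D at 0.389, 1.93 and 1.15, from 61 to 1446 fragments a library. All 3 CRS-NKAα1+/- libraries lay below all 3 of CRS-WT, whereas CRS-WT-DR5-12D overlapped CRS-WT, and CRS-WT replicate 1 was 3.57 times the next library. The difference was −1.26 ± 0.458 (SE, adjusted p = 0.319) for CRS-NKAα1+/- against CRS-WT. For CRS-WT-DR5-12D against CRS-WT it was −1.06 ± 0.458 (adjusted p = 0.379). Neither passed the threshold of 0.05. Without CRS-WT replicate 1 these differences were −0.72 and −0.52. When each library was rescaled to the same sum (TPM), the first became −1.95 with an adjusted p of 0.0321, while the median of all genes moved to −0.42. The small RNA model Gm23935 alone held 4.67% to 19.3% of the summed FPKM of a library in CRS-WT. Its share was 28.6% to 37.9% in CRS-NKAα1+/- and 26.5% to 33.5% in CRS-WT-DR5-12D, above every CRS-WT library. TPM divides by these sums, and the part of Gm23935 in the rescaled values was not tested.

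Col1a2 (ENSMUSG00000029661, chr6:4504814-4541544, plus strand), the partner chain of Col1a1, stood at 3.99, 1.10 and 0.965 FPKM in CRS-WT. In CRS-NKAα1+/- its values were 1.64, 1.74 and 0.992, and in CRS-WT-DR5-12D they were 0.771, 1.29 and 1.204. Apart from CRS-WT replicate 1, which was 2.29 times the next library, the groups overlapped, and CRS-NKAα1+/- replicates 1 and 2 were above the other CRS-WT libraries. The differences from CRS-WT were −0.17 ± 0.333 (adjusted p = 0.812) and −0.40 ± 0.333 (adjusted p = 0.634). Without CRS-WT replicate 1 both turned positive, at 0.26 and 0.031.

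The chains of type I collagen did not keep 1 ratio over the libraries. The ratio of Col1a1 to Col1a2 in FPKM, a value per length, was 2.02, 2.05 and 1.73 in CRS-WT. In CRS-NKAα1+/- it was 0.497, 0.236 and 1.23, and in CRS-WT-DR5-12D 0.505, 1.49 and 0.954. All 6 libraries outside CRS-WT lay below it, and the 3 lowest ratios were those of the libraries low in granule cell genes. The ratio was chosen after these values were seen and was not tested.

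Col3a1 (ENSMUSG00000026043, chr1:45311538-45349706, plus strand) stood at 3.12, 0.546 and 0.272 FPKM in CRS-WT. CRS-NKAα1+/- libraries stood at 0.319, 0.175 and 0.257, and those of CRS-WT-DR5-12D at 0.0700, 0.317 and 0.331. CRS-WT replicate 1, with 838 fragments, was 5.72 times the next library, and the other 8 held 18 to 81 fragments. The differences from CRS-WT were −0.69 ± 0.380 (adjusted p = 0.414) and −0.70 ± 0.380 (adjusted p = 0.466), and −0.17 and −0.19 without CRS-WT replicate 1. In that library the 3 collagens made up 51.3% of the summed FPKM of the 10 genes, against 15.7% to 32.1% in the other 8.

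**Figure D2:**
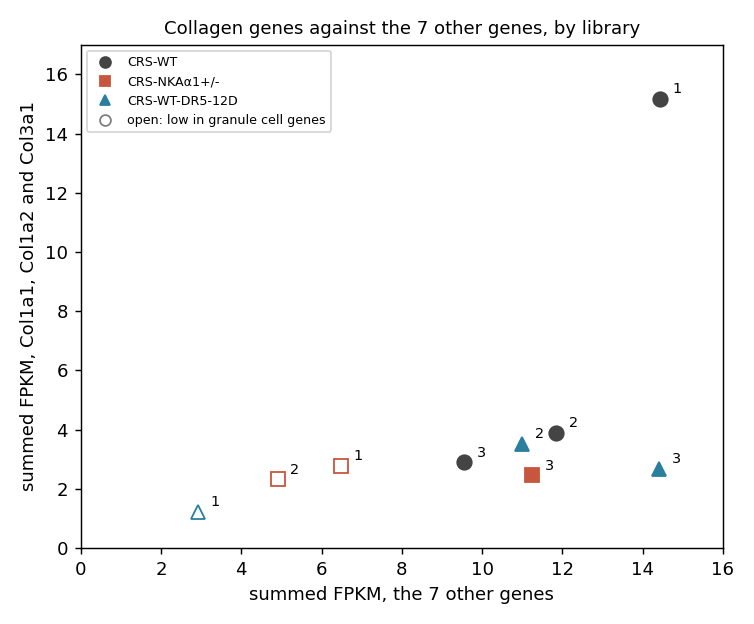
Summed FPKM of Col1a1, Col1a2 and Col3a1 (vertical) against that of the 7 other genes (horizontal), 1 point per library, numbered by replicate; open points are the libraries low in granule cell genes. CRS-WT replicate 1 lies apart at 15.2 on the vertical axis, where the other 8 lie between 1.23 and 3.91, while its 14.4 on the horizontal axis is matched by CRS-WT-DR5-12D replicate 3.

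Of the proteoglycans, Ogn (ENSMUSG00000021390, chr13:49608046-49624501, plus strand) stood at 2.68, 2.55 and 2.14 FPKM in CRS-WT. In CRS-NKAα1+/- it stood at 1.19, 0.447 and 1.93, and in CRS-WT-DR5-12D at 0.253, 2.09 and 1.84, from 17 to 188 fragments. CRS-WT lay above both other groups with no overlap, and the 3 lowest values were those of the libraries low in granule cell genes. The differences were −0.71 ± 0.362 (adjusted p = 0.387) and −0.63 ± 0.362 (adjusted p = 0.488). Without those 3 libraries they were −0.23 and −0.22. Here and below, leaving those 3 out keeps 1 CRS-NKAα1+/- library, replicate 3, assumed to vary like the others.

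Lum (ENSMUSG00000036446, chr10:97565128-97572703, plus strand) stood at 2.50, 1.59 and 1.53 FPKM in CRS-WT. In CRS-NKAα1+/- its values were 0.496, 0.577 and 2.25, and in CRS-WT-DR5-12D they were 0.436, 1.94 and 1.70. The libraries fell into a low set of 3 at 0.436 to 0.577 and a set of 6 at 1.53 to 2.50, and the low set held the libraries low in granule cell genes. The differences were −0.53 ± 0.358 (adjusted p = 0.479) and −0.34 ± 0.358 (adjusted p = 0.706), and 0.19 and −0.012 without that set.

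Fmod (ENSMUSG00000041559, chr1:134037254-134048277, plus strand) stood at 3.23, 3.10 and 2.05 FPKM in CRS-WT. CRS-NKAα1+/- libraries stood at 1.31, 0.801 and 2.24, and those of CRS-WT-DR5-12D at 0.427, 2.52 and 4.14. The same 3 libraries were lowest, and the highest value was that of CRS-WT-DR5-12D replicate 3, not of CRS-WT. The differences were −0.66 ± 0.432 (adjusted p = 0.465) and −0.35 ± 0.432 (adjusted p = 0.745), and −0.21 and 0.18 without the 3 libraries.

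Among the transporters, Slc6a13 (ENSMUSG00000030108, chr6:121300227-121337733, plus strand) had the highest mean of the 10 genes, 2.59 ± 0.871 FPKM (SD over 9 libraries). It stood at 3.55, 2.64 and 1.95 in CRS-WT, at 2.16, 2.27 and 2.66 in CRS-NKAα1+/- and at 1.26, 2.58 and 4.22 in CRS-WT-DR5-12D. The groups overlapped throughout, and the lowest and the highest value were both in CRS-WT-DR5-12D. The differences from CRS-WT were −0.13 ± 0.282 (adjusted p = 0.842) and −0.071 ± 0.282 (adjusted p = 0.925), the smallest in size of the 9 genes tested in each comparison.

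Slc22a6 (ENSMUSG00000024650, chr19:8618039-8628299, plus strand) stood at 1.06, 1.04 and 0.779 FPKM in CRS-WT. In CRS-NKAα1+/- it stood at 0.571, 0.285 and 0.977, and in CRS-WT-DR5-12D at 0.256, 0.876 and 1.22. The libraries low in granule cell genes held the 3 lowest values, and the other 6 covered 0.779 to 1.22. The differences were −0.30 ± 0.228 (adjusted p = 0.519) and −0.17 ± 0.228 (adjusted p = 0.759), and 0.016 and 0.062 without those libraries.

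Slc13a4 (ENSMUSG00000029843, chr6:35267957-35308131, minus strand) stood at 1.22, 0.833 and 1.09 FPKM in CRS-WT. CRS-NKAα1+/- libraries stood at 0.705, 0.536 and 1.16, and those of CRS-WT-DR5-12D at 0.286, 0.977 and 1.23. The order of the libraries again placed the same 3 below the other 6, which spanned 0.833 to 1.23. The differences were −0.20 ± 0.216 (adjusted p = 0.658) and −0.19 ± 0.216 (adjusted p = 0.717), and 0.078 and 0.042 without the 3 libraries.

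Igf2 (ENSMUSG00000048583, chr7:142650766-142666816, minus strand) was near the limit of detection, with a mean of 0.0518 FPKM. It rested on 28, 8 and 2 fragments in CRS-WT, on 5, 0 and 5 in CRS-NKAα1+/- and on 1, 2 and 6 in CRS-WT-DR5-12D. CRS-WT replicate 1 held the most, with an exact Poisson 95% interval of 18.6 to 40.5 fragments, against 3.45 to 15.8 in CRS-WT replicate 2. These are raw counts from libraries of unlike implied depth, 27323380 and 15117452, so the intervals do not compare levels. In FPKM the 2 libraries stood at 0.179 and 0.0925. The library with 0 fragments allows up to 3.69, and these intervals cover counting error only. With no filter on low values the difference was −0.088 in both comparisons with CRS-WT (adjusted p = 0.592 and 0.670). At this level the added 1 keeps any difference small, so that value does not show equal levels. The log2 ratio of mean FPKM was −1.69 in both comparisons, from these few fragments. Of the exon bases of Igf2 in GENCODE vM21, 62.8% are shared with the model Gm49394 on the same strand, so its fragments are uncertain in origin. H19 was counted at 2914 fragments in CRS-WT replicate 1 and at 5 to 116 elsewhere. Its differences from CRS-WT were −2.45 ± 0.887 (adjusted p = 0.319) and −2.71 ± 0.887 (adjusted p = 0.266).

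Over the groups, limma called 0 of the 9 tested genes in CRS-NKAα1+/- against CRS-WT, where 0.0225% of all genes were called. It called 0 in CRS-WT-DR5-12D against CRS-WT (0.0282% of all genes), 0 in CRS-WT-DR5-12D against CRS-NKAα1+/- (0.513%, made up of 0.0113% higher and 0.501% lower) and 0 in the F-test for any difference among the groups (0.27%). At an unadjusted p under 0.05 the counts were 1, 1, 0 and 1, each time Col1a1, where 14.1%, 13%, 8.83% and 13.7% of all genes passed. limma-voom on recovered fragment counts also called 0 in each. Groups without overlap were seen in 2 genes where CRS-NKAα1+/- lay below CRS-WT, Col1a1 and Ogn (10% of all genes), and in 1 where CRS-WT-DR5-12D lay below it, Ogn (11.4%). None of the 9 had CRS-NKAα1+/- (10.9% of all genes) or CRS-WT-DR5-12D (11.4%) wholly above CRS-WT. Between CRS-WT-DR5-12D and CRS-NKAα1+/- all 9 overlapped, where 5.35% of all genes were wholly higher and 7.15% wholly lower with DR5-12D.

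The mean of log2(FPKM + 1) was below that of CRS-WT for 10 of 10 genes in each of the other groups, with a median difference of −0.41 in CRS-NKAα1+/- and −0.34 in CRS-WT-DR5-12D. Over all genes the median differences were 0.0091 and 0.0071, and 48.1% and 48.4% were lower. Both comparisons share the CRS-WT libraries. The added 1 holds these values down: with 0.1 in its place the medians were −0.83 and −0.60, and by limma-voom, over the 9 tested genes, −1.05 and −0.89. Col3a1, a gene of low level, differed by −1.88 and −2.32 by limma-voom (adjusted p = 0.419 and 0.402). Under TPM the medians of the 10 were −0.91 and −0.76, beside −0.42 and −0.33 over all genes. Without the 3 libraries low in granule cell genes the medians of the 10 genes were −0.15 and −0.042, and without CRS-WT replicate 1 as well they were −0.028 and 0.10. In both of these settings CRS-NKAα1+/- was replicate 3 alone. In CRS-WT-DR5-12D against CRS-NKAα1+/- the differences ran from −0.23 for Col1a2 to 0.31 for Fmod, with a lowest adjusted p of 0.875. The median was 0.067 and 2 of 10 were lower.

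**Figure D3:**
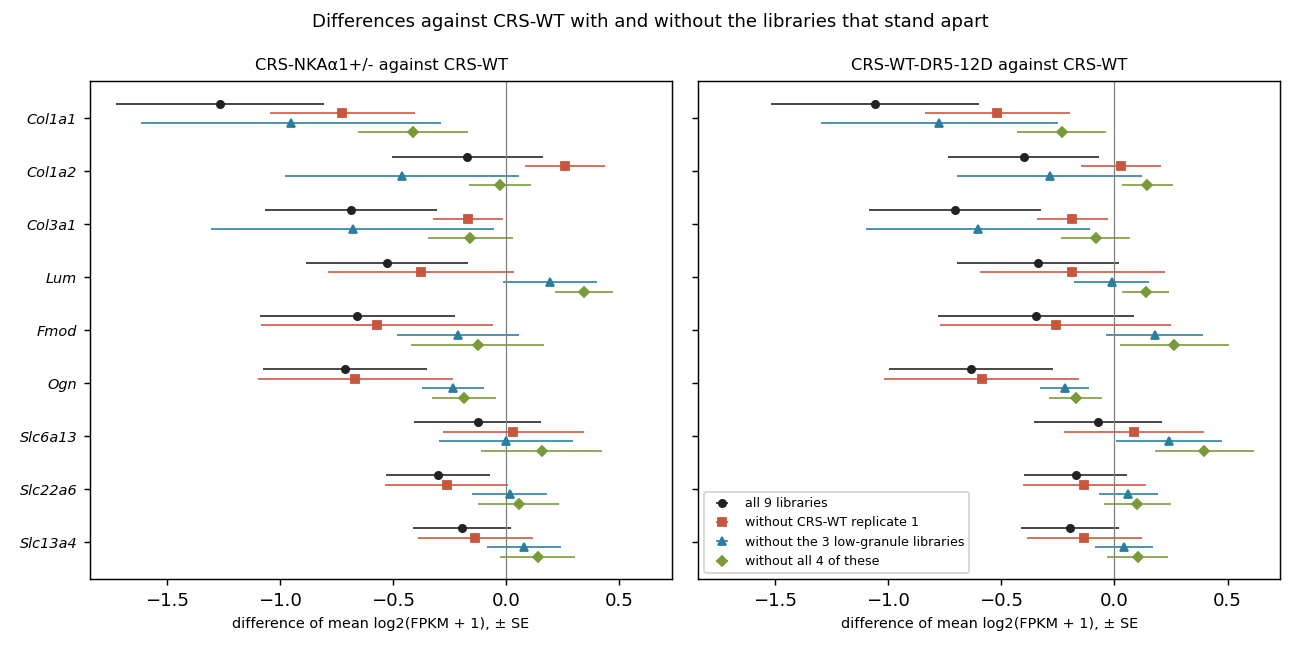
Difference of mean log2(FPKM + 1) from CRS-WT for the 9 tested genes (points, bars ± SE), with all 9 libraries and with the libraries that stand apart left out. For Col3a1 the points without CRS-WT replicate 1 lie at −0.17 and −0.19, and for Lum the point without the 3 libraries low in granule cell genes lies at 0.19 in the left panel. Where those 3 are left out, CRS-NKAα1+/- is replicate 3 alone, and the bars assume that it varies like the others.

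By library, 5 of the 9 tested genes had their highest value in CRS-WT replicate 1 (Col1a1, Col1a2, Col3a1, Lum and Ogn), where 13.2% of all genes did. The 3 collagens were at least 2-fold over the next library there, against 0.417% of all genes. In 6 of the 9, Col1a1, Lum, Fmod, Ogn, Slc22a6 and Slc13a4, the 3 lowest values fell in the libraries low in granule cell genes, against 11.6% of all genes. Other lists described below shared these patterns in part. CRS-WT replicate 1 was highest for 14 of 25 collagen processing, 5 of 8 granule cell and 4 of 5 red blood cell genes. It was highest for 0 of 7 ependymal and 0 of 6 pyramidal cell genes. The 3 lowest values fell in those 3 libraries for 3 of 3 choroid plexus and 5 of 7 ependymal genes. They did so for 4 of 7 other proteoglycan, 1 of 12 endothelial and 0 of 5 red blood cell genes. Summed FPKM of the 10 genes was 29.6, 15.8 and 12.5 in CRS-WT. In CRS-NKAα1+/- it was 9.27, 7.24 and 13.7, and in CRS-WT-DR5-12D 4.16, 14.5 and 17.1. Mean FPKM followed the order Slc6a13, Fmod, Col1a1, Ogn, Col1a2, Lum, Slc13a4, Slc22a6, Col3a1 and Igf2. FPKM is a value per exon length, so fragments need not follow that order. Col1a2, with 12426 exon bases, held 207 to 1355 fragments a library, and Slc6a13, with 2904, held 96 to 282. Neighbours in that order differed by less than the larger of their SDs over the 9 libraries, as with Fmod at 2.20 ± 1.21 and Col1a1 at 1.99 ± 2.37.

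The other listed markers of meningeal fibroblasts were above 0 in every library, 18 of 18, and 13 reached the minimum for the test. None was called, and 11 and 12 of the 13 were lower than CRS-WT in CRS-NKAα1+/- and with DR5-12D, with medians of −0.26 and −0.43. Pcolce, which speeds the trimming of procollagen, stood at 5.50, 2.65 and 1.97 FPKM in CRS-WT, and its differences were −0.82 and −0.85. Serpinf1, a secreted inhibitor of vessel growth, differed by −0.75 and −0.57, and Mgp, a matrix protein that limits calcification, by −0.0063 and −0.80. In this list 7 of the 13 were highest in CRS-WT replicate 1 and 6 of the 13 had the 3 lowest values in the libraries low in granule cell genes. Crabp2, a retinoic acid carrier named after its values were seen, was 2.83 times the next library in CRS-WT replicate 1.

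Of the 24 other collagen genes tested, 15 and 16 were lower than CRS-WT and 0 were called, with medians of −0.13 and −0.047. Col5a2, a chain of type V collagen that copolymerises with type I, differed by −0.81 and −0.55, Col5a3 by 0.65 and 0.066 and the basement membrane chain Col4a1 by 0.033 and −0.35. Genes that fold, crosslink and trim collagen numbered 25, with 16 and 20 lower, 0 called and medians of −0.19 and −0.18. Serpinh1, the collagen chaperone, stood at 34.3 FPKM in CRS-WT replicate 1 and at most 16.1 elsewhere, and its differences were −0.50 and −1.31. P4hb, a subunit of prolyl hydroxylase, differed by −0.072 and −0.43, and Plod1, a lysyl hydroxylase, by −0.014 and −0.49. Lox, the enzyme that crosslinks collagen, was named after its values were seen and was 4.71 times the next library in CRS-WT replicate 1. Pcolce belongs to both this list and the one before.

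The other small leucine-rich proteoglycans gave 7 tested genes, 6 and 5 of them lower and 0 called, with medians of −0.29 and −0.14. Bgn, which binds collagen and growth factors, differed by −0.52 and −0.58, Ecm2 by −0.48 and −0.095 and Podn by 0.21 and 0.43. In the IGF system 7 and 9 of 14 were lower, with medians of 0.0050 and −0.079. Its member Igfbp7, a binding protein made by vessels, was the gene called there: it was lower in CRS-WT-DR5-12D, at 7.41 to 8.57 FPKM, than in CRS-NKAα1+/-, at 17.1 to 33.0 (−1.44 ± 0.207, adjusted p = 0.0324). Related transporters gave 6 tested genes, 4 and 3 lower and 0 called, with medians of −0.15 and −0.017. Slc22a8, another organic anion transporter, differed by −0.87 and −0.34, Slc13a5 by 0.67 and 0.53 and Slc6a11 by −0.13 and 0.091. In the TGF-beta pathway, which drives collagen synthesis in fibroblasts, 8 and 9 of 14 were lower and 0 were called, with medians of −0.098 and −0.10. Tgfb1, its first ligand, differed by 0.36 and −0.21, and the receptor gene Tgfbr2 by −0.15 and −0.52.

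Markers of neighbouring cells varied over the libraries beside the 10 genes, and their part in the result was not tested. The 12 choroid plexus genes summed to 5.06 to 9.91 FPKM in CRS-WT, 1.42 to 12.5 in CRS-NKAα1+/- and 1.14 to 5.79 in CRS-WT-DR5-12D. Their 3 lowest sums were those of the libraries low in granule cell genes, 9 of the 12 were under 1 FPKM in every library, and Clic6, Kcne2, Otx2 and Tmem72 were at 0 in at least 1. Ttr, the main secreted protein of the choroid plexus, stood at 6.52 FPKM in CRS-WT replicate 1 and 8.64 in CRS-NKAα1+/- replicate 3. The 10 ependymal genes summed to 17.2 to 18.1, 8.81 to 28.6 and 8.77 to 20.8 FPKM in the same order of groups, with Ccdc153, Tmem212 and Mia at 0 in at least 1 library. Of these lists 0 of 3 and 0 of 7 tested genes were called, with medians of −0.62 and −0.28 in CRS-NKAα1+/- and −0.51 and −0.22 with DR5-12D.

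Endothelial genes summed to 115.7 to 124.1 FPKM in CRS-WT, 94.2 to 123.3 in CRS-NKAα1+/- and 76.1 to 95.1 in CRS-WT-DR5-12D, with 10 and 12 of 12 lower and medians of −0.26 and −0.31. Ly6c1 was the gene called there, in CRS-WT-DR5-12D against CRS-NKAα1+/- (−1.08 ± 0.169, adjusted p = 0.0416), a comparison in which 6 of the 12 were lower and the median of the list was 0.081. Mural cell genes summed to 69.3 to 79.4, 41.3 to 56.7 and 42.9 to 67.0 FPKM, with 7 and 7 of 8 lower and 0 called. Of 2 border macrophage genes tested, 0 and 1 were lower and 0 were called. Red blood cell genes summed to 85.6 to 310.1, 34.6 to 65.8 and 150.1 to 277.1 FPKM, with the highest sum in CRS-WT replicate 1 and 0 of 5 called. Granule cell genes were lower in 8 and 8 of 8, with medians of −1.05 and −0.58, and pyramidal cell genes in 3 and 2 of 6, with 0 called in both lists.

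**Figure D4:**
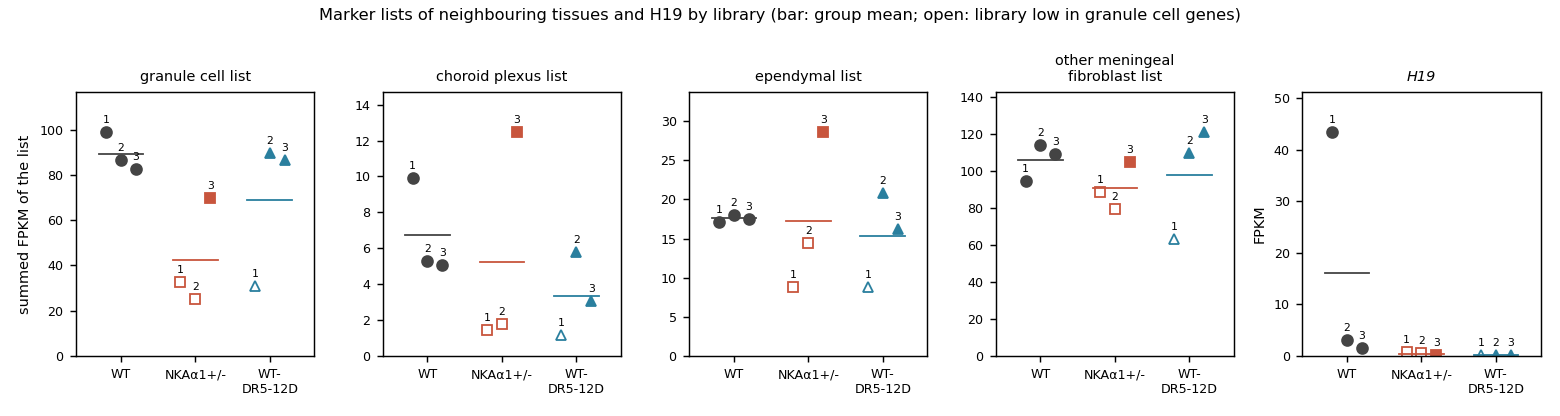
Summed FPKM of the granule cell, choroid plexus, ependymal and other meningeal fibroblast lists and FPKM of H19 in every library; points are libraries numbered by replicate, bars are group means, and open points are the libraries low in granule cell genes. The open points lie lowest in each of the 4 lists, and H19 lies at 43.4 FPKM in CRS-WT replicate 1 alone.

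The genes most like the 10 were ranked by Pearson r over the 9 libraries with the mean of their standardised values. The ranking took in 12529 genes whose mean FPKM reached 1, without those known only by a Gm or Rik name. The first 10 were Kmt5c (r = 0.973), Bcar1 (0.972), Fam180a (0.964), Mfap2 (0.961), Nup85 (0.960), D16Ertd472e (0.959), Colec12 (0.955), Hnrnpa3 (0.952), Rhno1 (0.952) and Rdm1 (0.949). Mfap2, a microfibril protein of the extracellular matrix, stood at 10.3, 6.01 and 5.94 FPKM in CRS-WT. In CRS-NKAα1+/- it stood at 3.74, 2.95 and 7.03, and in CRS-WT-DR5-12D at 2.58, 6.52 and 7.34. Fam180a stood at 2.21, 1.40 and 1.12, at 0.597, 0.440 and 1.05 and at 0.404, 0.918 and 1.30 in the same order. Both were highest in CRS-WT replicate 1 and lowest in the 3 libraries low in granule cell genes. So were the 2 genes ranked first. Kmt5c stood at 6.31 FPKM in CRS-WT replicate 1 and at 3.33 to 3.93 in those 3 libraries, and Bcar1 at 12.8 and at 7.99 to 8.69. The pattern was therefore not particular to Mfap2 and Fam180a. These r values share 9 libraries and the best of many genes, and they are a description only.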

How the data were processed

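Total RNA of 9 libraries was sequenced. The authors deposited 1 table of FPKM per gene. cutadapt, HISAT2, RSEM 1.2.30 and GRCm38 are named in the submitters' processing notes; no source used here gives the annotation release or strandedness, so overlapping and antisense genes carry doubt. The values were whole fragment counts over exon length and the implied depth (within 0.02 of a count) for 17721 of 17753 tested genes, 16215 at the GENCODE vM21 length.

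Genes whose mean FPKM reached 0.5 were kept, 17753 of 35485 above 0. log2(FPKM + 1) was fitted with limma 3.58.1 in R 4.3.3, with 9 libraries in 1 fit, a trend and no block, two-sided, and Benjamini-Hochberg adjustment at 0.05. The added 1 shrinks differences of low genes. Poisson intervals are exact. Motifs were searched in RefSeq windows with Python 3.11.15.

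The 10 genes and the lists were chosen with earlier results of these data known. From each list the genes called, or otherwise up to 3 with the smallest F-test p, were eligible for naming, beside the 10 most similar genes. Same-numbered libraries correlated at −0.35 to 0.50 in their deviations from group means. CRS-WT-DR5-12D replicate 1 correlated at 0.45 with CRS-NKAα1+/- replicate 1 and at 0.51 with CRS-NKAα1+/- replicate 2, all 3 low in granule cell genes. These values therefore cannot exclude a pairing by number, and none was used in the main fit. Alternatives were a pseudocount of 0.1, other filters, TPM, median-of-ratios scaling, limma-voom, 2 groups in the fit, a replicate block and leaving out each library. The check of the gene that the CRS-NKAα1+/- label concerns is not reported here, and that group is named by its label only.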

Additional observations from a re-analysis of the deposited data

How the results depend on the processing

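Of 336 alternatives for the 9 tested genes against CRS-WT, many could not change the direction. Other filters, 2 groups in the fit, the replicate block and leaving out a library of the group not compared left each difference as it was. Median-of-ratios scaling divided every library by the same factor. The counts are therefore no measure of how stable the direction is. Of the 336, 310 kept direction and side of the threshold, 25 changed sign without passing it and 1 passed it, and the cause was not tested. That 1 was Col1a1 under TPM, so that 1 gene was called in CRS-NKAα1+/- against CRS-WT; under TPM the median of all genes was −0.42, −0.33 and 0.10 in the 3 comparisons, and it called 7451, 975, 68 and 1751 genes where 4, 5, 91 and 48 (F-test) were called as reported. With no filter these were 0, 0, 30 and 6, with 2 groups in the fit 3, 41 and 5, and with the replicate block 0, 0, 40 and 7, with 0 of the 10 genes called. Raising the minimum to 1 FPKM gave 17, 6, 93 and 50, a pseudocount of 0.1 gave 5, 6, 130 and 100, and limma-voom 1, 1, 71 and 47. Leaving out 1 library at a time gave 0 to 25, 0 to 21, 1 to 194 and 1 to 151 genes and 0 to 0 of the 10. It spread the differences of Col1a2 over −0.41 to 0.26 (CRS-NKAα1+/-) and −0.64 to 0.031 (CRS-WT-DR5-12D) and of Slc6a13 over −0.28 to 0.032 and −0.36 to 0.24. With DR5-12D it spread Slc22a6 over −0.35 to 0.062, Slc13a4 over −0.36 to 0.042 and Fmod over −0.75 to 0.18. The other alternatives that changed sign were chosen after seeing the data. Without the 3 libraries low in granule cell genes, the differences in CRS-NKAα1+/- (replicate 3 alone) were 0.19 (Lum), 0.016 (Slc22a6) and 0.078 (Slc13a4). With DR5-12D they were 0.24 (Slc6a13), 0.062 (Slc22a6), 0.042 (Slc13a4) and 0.18 (Fmod). Without CRS-WT replicate 1 as well, they were 0.34 (Lum), 0.16 (Slc6a13), 0.055 (Slc22a6) and 0.14 (Slc13a4), and with DR5-12D 0.15 (Col1a2), 0.14 (Lum), 0.40 (Slc6a13), 0.10 (Slc22a6), 0.10 (Slc13a4) and 0.26 (Fmod). Depth limits Igf2 at 0 to 28 fragments and Col3a1 at 18 to 81 outside CRS-WT replicate 1.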
